A study of Homo sapiens with 9 samples.

Results

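Autophagy and lysosome genes were examined in Huh7 cells after silencing of KDM4C. This histone demethylase removes methyl groups from lysines of histone H3, lysine 9 among them. The set was a list of 45 gene symbols chosen for their function in autophagy or the lysosome, with earlier results of these data known. Of these, 44 had a row among the 32906 genes listed for every library, and TMEM55A was not listed under that symbol and was skipped. By role, the 44 genes comprised 5 of autophagy initiation, 4 of membrane supply, 6 of conjugation, 4 ATG8 proteins, 3 cargo receptors, 3 MiT/TFE transcription factors, 5 lysosomal membrane proteins, 3 V-ATPase subunits and 11 proteins of the lysosomal lumen. The study sequenced RNA from 9 libraries in 3 groups of 3: cells given a scrambled siRNA (Scramble) and cells given either of a pair of siRNAs against KDM4C (Si-KDM4C#1 and Si-KDM4C#2), all collected 48 hours after transfection. The line, described in the labels as human hepatocellular carcinoma, was otherwise untreated, and the silencing was transient. The labels number the replicates from 1 to 3 without stating that they were separate cultures, so the p-values measure the spread between these libraries, which may be technical.

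Autophagy is the route by which a cell encloses its own material in a double membrane, the autophagosome, and delivers it to the lysosome. ULK kinases and a lipid kinase complex start the membrane, conjugation enzymes attach ATG8 proteins such as LC3B to it, receptors tie cargo to ATG8, and the lysosome, acidified by the V-ATPase, degrades the content with its hydrolases. Liver cells are known for active autophagy during starvation, and transcription factors of the MiT/TFE family drive many genes of both autophagy and the lysosome.

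The levels are FPKM as deposited (fragments scaled to exon length and library depth). The length was that of all annotated exons of a gene, so levels compared between genes are approximate. Depth ran from 14597500 to 18058553 fragments per library, as recovered from the FPKM values and the exon lengths. KDM4C itself stood at 4.88, 4.63 and 4.57 FPKM in the Scramble libraries, at 1.18, 1.10 and 1.13 with Si-KDM4C#1 and at 0.256, 0.349 and 0.256 with Si-KDM4C#2. Its log2 difference from Scramble was -1.41 ± 0.076 (SE, adjusted p = 2.65e-07) and -2.15 ± 0.076 (adjusted p = 5.45e-08), and no knockdown library reached a Scramble library. Of 15 hepatocyte markers, 12 had a row, and all 12 were under 1 FPKM in every library, with 0.248 FPKM the highest value of any. The cells are called Huh7 here as in the labels, and these markers did not show the liver identity of that line. The 3 leukocyte markers with a row were also under 1 FPKM throughout. The summed level of the 3 epithelial markers with a row (KRT8 and KRT18 in the main) was 330 to 353 FPKM with Scramble, 290 to 309 with Si-KDM4C#1 and 240 to 254 with Si-KDM4C#2, but its members differed: with Si-KDM4C#1 KRT18 was at 0.21 and KRT8 at -0.52 on the log2(FPKM + 1) scale. The sum of 4 mesenchymal markers was 66.7 to 73.9, 65.2 to 69.3 and 84.2 to 84.9 FPKM in the same order of groups. Its members differed as well. Of the 3 that were tested, 1 fell with Si-KDM4C#1 (-1.02 on the same scale) and 2 were not called. With Si-KDM4C#2, 2 rose, by at most 0.355, and 1 fell (-1.02). The part of these markers in the results below was not tested.

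To find which autophagy and lysosome genes differed after KDM4C silencing, each siRNA was compared with Scramble, and the siRNAs with each other, in a single limma-trend fit of log2(FPKM + 1) over 14363 genes whose mean reached 1 FPKM in 1 or more of the groups. All 44 members passed this filter. A gene was called at an FDR under 0.05, and a second count asked in addition for a more than 2-fold change on the same scale. Changes below are log2 differences on the log2(FPKM + 1) scale with their standard error, which understate the change of genes near 1 FPKM. In RNA from bulk cells, fewer cells that express a gene and less of its RNA per cell cannot be told apart.

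With Si-KDM4C#1, 36 of the 44 genes (81.8%) were called, against 65.7% of all genes tested. Of them 22 rose (50%, against 31.7% of all genes) and 14 fell (31.8%, against 33.9%). The groups did not overlap for 37 members, which was the case for 69.4% of all genes. Only 4 members passed both limits (9.09%, against 8.87% of all genes): CTSB and WIPI2 were higher, as were 4.04% of all genes, and ATG3 and ATP6V1A were lower, as were 4.83%. The median log2 difference was 0.11 over the members and -0.03 over all genes tested, and the median size without its sign was 0.32 and 0.37.

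With Si-KDM4C#2, 31 of the 44 genes (70.5%) were called, against 59.4% of all genes. Of them 15 rose (34.1%, against 34.4%) and 16 fell (36.4%, against 25%). After quantile normalization of the libraries the split was 12 higher and 22 lower. Under that setting 4402 of all 14363 genes were higher and 4149 lower. The groups did not overlap for 32 members, which was the case for 65.3% of all genes. CTSB, higher (as were 2.6% of all genes), and SCARB2, lower (as were 2.3%), passed both limits, which makes 4.55% of the members against 4.89% of all genes. The median log2 difference was -0.02 over the members and 0.06 over all genes. Both comparisons use the same Scramble libraries, so values for the siRNAs are given side by side below, and where they are set against each other it is by their direct comparison.

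**Figure D1:**
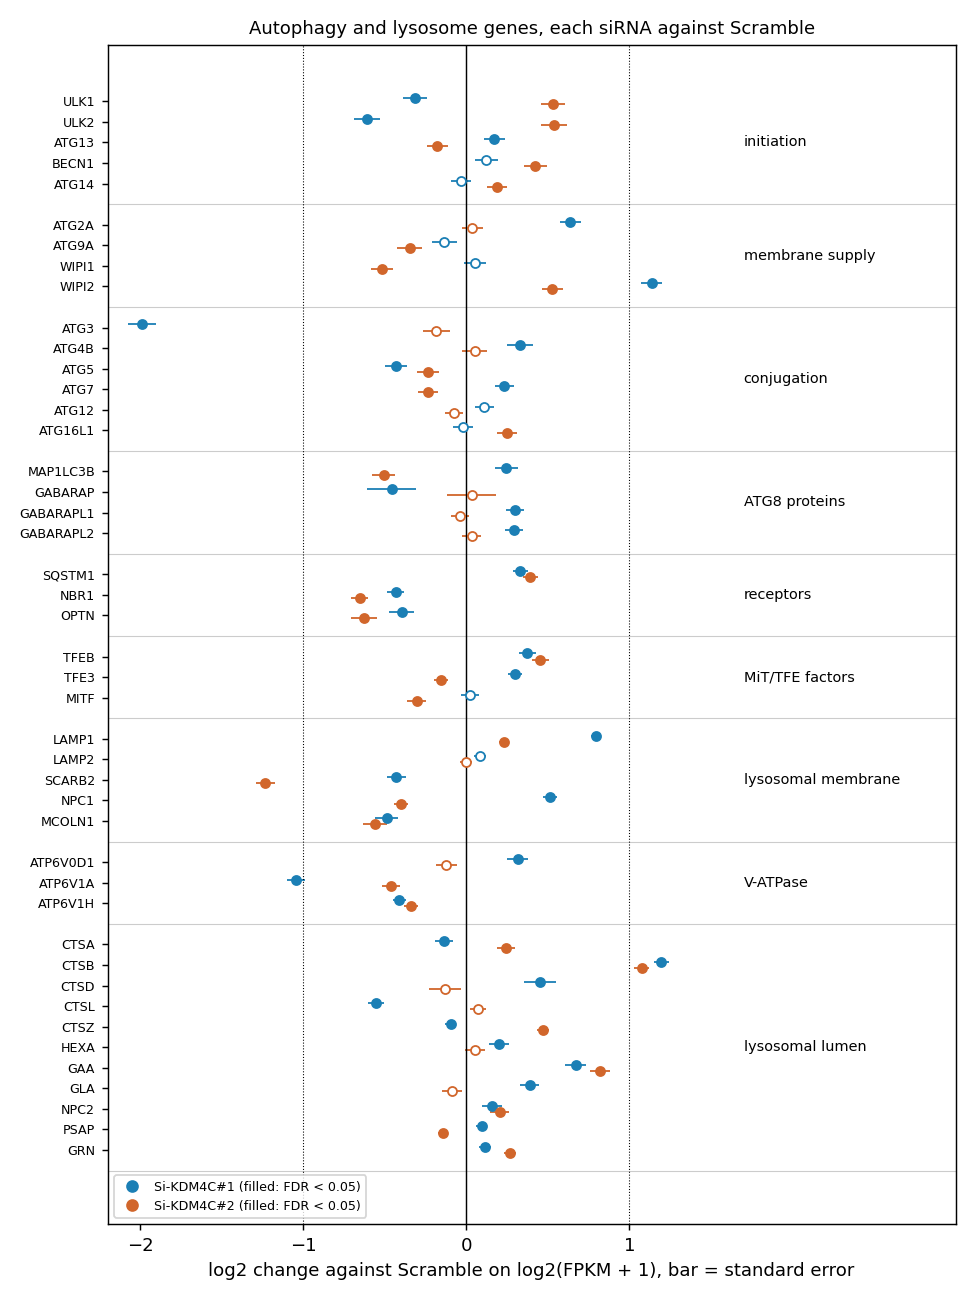
Log2 difference from Scramble on the log2(FPKM + 1) scale (horizontal axis) for the 44 genes, grouped by role, with Si-KDM4C#1 in blue and Si-KDM4C#2 in orange; bars are standard errors, filled points passed an FDR of 0.05 and dotted lines mark a 2-fold change. ATG3, at -1.99 with Si-KDM4C#1, lies farthest from 0, and most other points lie within the dotted lines.

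The set was well expressed. In the Scramble group, 36 of the 44 genes stood above the middle of the tested genes and 8 above 90% of them, with a median of 11.8 FPKM. PSAP, the precursor of the saposins that assist lipid hydrolases, led at 363 ± 12.5 FPKM (SD, n = 3). It was followed by GRN, the precursor of the granulins, at 157 ± 3.63 FPKM and by CTSZ, a carboxypeptidase of the lysosome, at 107 ± 2.04 FPKM. These leaders did not overlap with one another in any library. LAMP1, at 55.8 ± 1.19 FPKM, and the receptor SQSTM1, at 45.0 ± 2.25 FPKM, came next. At the other end, GABARAP, an ATG8 protein (2.18 ± 0.287 FPKM), and the kinase ULK2 (1.64 ± 0.154 FPKM) were the lowest. The Scramble libraries of GABARAP, at 1.91 to 2.48 FPKM, all lay above those of ULK2, at 1.48 to 1.78 FPKM. The level of GABARAP is uncertain, since 55.7% of its exon bases lie in exons of other genes.

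**Figure D2:**
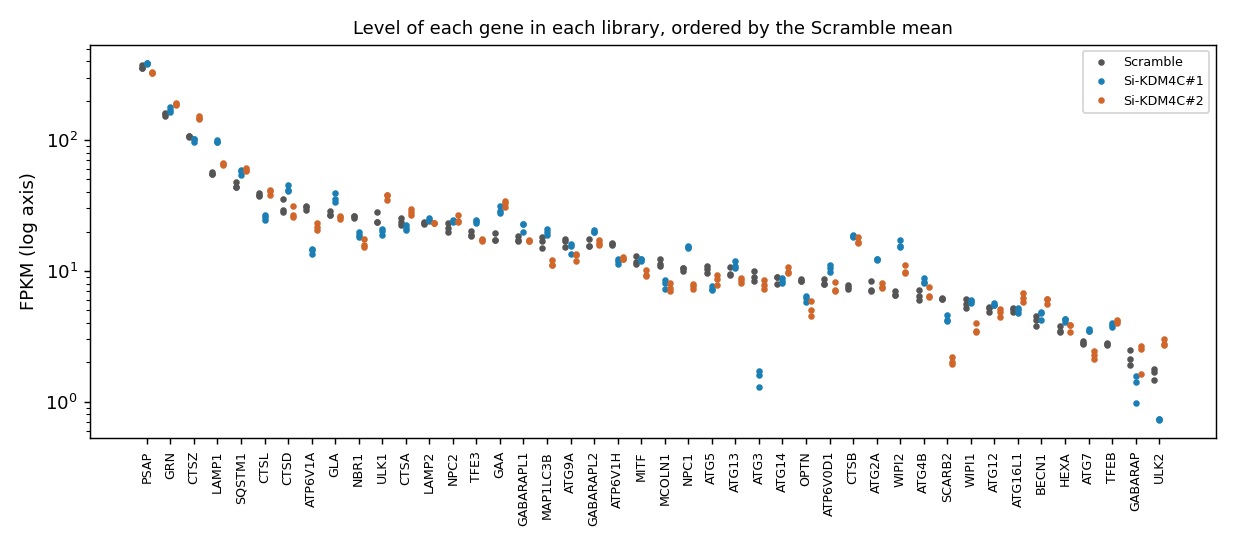
FPKM in each library (vertical log axis) for the 44 genes, ordered from left to right by the mean of the Scramble libraries; each point is 1 library, coloured by group. The genes span from 363 FPKM for PSAP to 1.64 FPKM for ULK2 in the Scramble group, and ATG3 shows the widest gap between groups, with the Si-KDM4C#1 libraries at 1.29 to 1.72 FPKM.

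The initiation genes gave opposite results with the siRNAs at the ULK kinases, which receive the starvation signal. ULK1 (chr12:131894651-131923167, GRCh38, plus strand) stood at 28.3, 23.8 and 23.6 FPKM with Scramble, at 20.9, 20.2 and 18.9 with Si-KDM4C#1 and at 38.1, 34.5 and 37.8 with Si-KDM4C#2. No group overlapped another: ULK1 fell with Si-KDM4C#1 (log2 difference -0.32 ± 0.074, adjusted p = 0.00385) and rose with Si-KDM4C#2 (0.53 ± 0.074, adjusted p = 0.000186). ULK2 (chr17:19770829-19867936, minus strand), its close relative, stood at 1.68, 1.48 and 1.78 FPKM with Scramble, at 0.720, 0.738 and 0.733 with Si-KDM4C#1 and at 3.02, 2.77 and 2.73 with Si-KDM4C#2. The order of the groups was the same as for ULK1 and again without overlap, at a log2 difference of -0.61 ± 0.079 (adjusted p = 8.89e-05) and of 0.54 ± 0.079 (adjusted p = 0.000274). The direct comparison of Si-KDM4C#2 with Si-KDM4C#1 gave a log2 difference of 0.85 ± 0.074 for ULK1 (adjusted p = 6.92e-06) and of 1.15 ± 0.079 for ULK2 (adjusted p = 1.52e-06). After a lowess adjustment of every library for gene GC content, the log2 differences of ULK1 (64.1% GC) from Scramble were -0.61 and 0.18, both still called. The low level of ULK2 made its size depend on the scale: with a pseudocount of 0.1, the difference from Scramble with Si-KDM4C#1 was -1.07.

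Of the other initiation genes, BECN1 and ATG14, members of the lipid kinase complex that marks the new membrane, rose with Si-KDM4C#2 at log2 differences of 0.42 ± 0.070 (adjusted p = 0.000581) and 0.19 ± 0.060 (adjusted p = 0.0226). With Si-KDM4C#1 their differences of 0.12 (adjusted p = 0.146) and -0.03 (adjusted p = 0.661) were not called, though BECN1 was called as higher after quantile normalization (0.21), by voom (0.22) and with the GC adjustment (0.19). Of the exon bases of BECN1, 17.1% lie in exons of other genes, so its values are uncertain. ATG13, an adaptor of the ULK complex, rose with Si-KDM4C#1 (0.17, adjusted p = 0.041) and fell with Si-KDM4C#2 (-0.18, adjusted p = 0.0366). The first of these calls was lost without Scramble replicate 1 or 2, Si-KDM4C#1 replicate 1 or 2, or Si-KDM4C#2 replicate 2 or 3, and the second without Scramble replicate 3 or Si-KDM4C#2 replicate 1 or 2; for ATG14 with Si-KDM4C#2 it was lost without Scramble replicate 3 or Si-KDM4C#2 replicate 2. In all, 4 of the 5 initiation genes rose with Si-KDM4C#2 and 1 fell, while with Si-KDM4C#1 1 rose and 2 fell. Of all genes tested, 34.4% rose and 25% fell with Si-KDM4C#2, the shares for Si-KDM4C#1 being 31.7% and 33.9%.

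Among the genes of membrane supply, WIPI2, which binds the lipid made by that kinase and recruits the conjugation machinery, rose with both siRNAs. WIPI2 (chr7:5190188-5233826, plus strand) stood at 6.60, 6.59 and 6.99 FPKM with Scramble, at 15.5, 15.2 and 17.3 with Si-KDM4C#1 and at 9.80, 11.03 and 9.64 with Si-KDM4C#2. The Scramble libraries were the lowest and the Si-KDM4C#1 libraries the highest, with no overlap. The log2 difference was 1.14 ± 0.064 with Si-KDM4C#1 (adjusted p = 3.28e-07) and 0.53 ± 0.064 with Si-KDM4C#2 (adjusted p = 7.74e-05), and Si-KDM4C#2 lay 0.61 below Si-KDM4C#1 on this scale, a log2 difference of -0.61 ± 0.064 (adjusted p = 2.46e-05).

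WIPI1, of the same family, went otherwise. It stood at 5.16, 6.04 and 5.63 FPKM with Scramble, at 5.86, 5.66 and 6.04 with Si-KDM4C#1 and at 4.002, 3.46 and 3.39 with Si-KDM4C#2. Only the Si-KDM4C#2 libraries lay apart, below all others (log2 difference -0.52 ± 0.070, adjusted p = 0.000156), while the difference with Si-KDM4C#1 was 0.05 (adjusted p = 0.518). Of the exon bases of WIPI1, 28.1% lie within exons of other genes on the opposite strand, so its values are uncertain if the counting ignored strand. ATG2A, which carries lipid to the growing membrane, stood at 8.42, 7.09 and 7.05 FPKM with Scramble, at 12.3, 12.03 and 12.3 with Si-KDM4C#1 and at 7.41, 8.14 and 7.60 with Si-KDM4C#2. It was higher in all Si-KDM4C#1 libraries (0.64 ± 0.065, adjusted p = 1.75e-05) and overlapped with Scramble for Si-KDM4C#2 (0.04, adjusted p = 0.654). Adjustment for GC content (63.8% in ATG2A) gave a log2 difference of 0.35 for Si-KDM4C#1 and of -0.31 for Si-KDM4C#2, the latter then called as lower (adjusted p = 0.000507). ATG9A, the membrane protein of the vesicles that seed the autophagosome, fell with Si-KDM4C#2 (-0.35, adjusted p = 0.00329) and was at -0.13 with Si-KDM4C#1 (adjusted p = 0.147), called as lower after quantile normalization (-0.23) and with the GC adjustment (-0.31); 38.8% of its exon bases are shared with another gene of the same strand.

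The largest change of the set was in the conjugation group. ATG3 (chr3:112532509-112562046, minus strand) is the E2-like enzyme that passes ATG8 proteins to their lipid anchor. It stood at 8.40, 8.92 and 9.93 FPKM with Scramble, at 1.61, 1.29 and 1.72 with Si-KDM4C#1 and at 8.49, 7.83 and 7.30 with Si-KDM4C#2. The Si-KDM4C#1 libraries lay far below all others, at 0.170 times the mean FPKM of Scramble, and rested on 462 fragments against 2682. With Si-KDM4C#1 ATG3 fell by 1.99 ± 0.085 on the log2 scale (adjusted p = 6.75e-08). With Si-KDM4C#2 its difference of -0.18 ± 0.085 was not called (adjusted p = 0.0899), and the groups overlapped; after quantile normalization it was -0.26 and called (adjusted p = 0.0324), and voom on the recovered fragments called it too (-0.27, adjusted p = 0.00242). Between the siRNAs, ATG3 was higher with Si-KDM4C#2, the log2 difference being 1.81 ± 0.085 (adjusted p = 1.58e-07), the largest such difference among the members.

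The other conjugation genes moved less. ATG5, which with ATG12 and ATG16L1 forms the complex that places ATG8 on the membrane, fell with both siRNAs, at -0.43 ± 0.066 (adjusted p = 0.000283) and -0.23 ± 0.066 (adjusted p = 0.0125). Neither call held with the adjustment for GC content (39.4% in ATG5), which gave -0.16 (adjusted p = 0.0509) and -0.13 (adjusted p = 0.119). ATG7, the E1-like enzyme upstream of ATG3, rose with Si-KDM4C#1 (0.23, adjusted p = 0.00694) and fell with Si-KDM4C#2 (-0.24, adjusted p = 0.00769). ATG4B, the protease that primes and recycles ATG8 proteins, rose with Si-KDM4C#1 (0.33, adjusted p = 0.00406), a call lost with the GC adjustment (0.17, adjusted p = 0.0713), and was at 0.05 with Si-KDM4C#2 (adjusted p = 0.592). The exons of other genes hold 18.1% of the exon bases of ATG7, which leaves its values uncertain. ATG16L1 rose with Si-KDM4C#2 (0.25, adjusted p = 0.0061), and ATG12 passed in neither comparison with Scramble, at 0.11 (adjusted p = 0.127) and -0.08 (adjusted p = 0.286), but was called as higher with Si-KDM4C#1 after quantile normalization (0.18), by voom (0.19) and with the GC adjustment (0.39).

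Of the 4 ATG8 proteins, 3 rose with Si-KDM4C#1 (against 31.7% of all genes), 1 of which lost its call after quantile normalization, while with Si-KDM4C#2 1 fell (against 25% of all genes) and the other 3 were not called. MAP1LC3B, which encodes the LC3B protein widely used to mark autophagosomes, stood at 14.9, 16.9 and 18.2 FPKM with Scramble, at 19.9, 18.9 and 20.9 with Si-KDM4C#1 and at 11.04, 12.1 and 11.1 with Si-KDM4C#2. The groups did not overlap. MAP1LC3B rose with Si-KDM4C#1 (0.25 ± 0.071, adjusted p = 0.0122) and fell with Si-KDM4C#2 (-0.51 ± 0.071, adjusted p = 0.000202), and the direct difference was -0.75 ± 0.071 (adjusted p = 1.21e-05). After quantile normalization the rise with Si-KDM4C#1 was 0.12 and no longer called (adjusted p = 0.216). GABARAPL1 and GABARAPL2, related ATG8 proteins, rose with Si-KDM4C#1 by 0.30 (adjusted p = 0.000999) and 0.29 (adjusted p = 0.00112), and after quantile normalization by 0.16 and 0.17, both still called. With Si-KDM4C#2 their differences were -0.04 (adjusted p = 0.561) and 0.03 (adjusted p = 0.645). Over the alternatives with all libraries, that of GABARAPL1 ran from -0.15 to -0.04 and was called as lower in at least 1. GABARAP fell with Si-KDM4C#1 (-0.46 ± 0.148, adjusted p = 0.0208) on 144 fragments against 237, a call lost after quantile normalization (-0.32, adjusted p = 0.0795), without the filter on low genes (adjusted p = 0.0632) and without Scramble replicate 1 or Si-KDM4C#1 replicate 1. More than 55% of its exon bases (55.7%) lie in exons of other genes, so its level is uncertain.

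All 3 cargo receptors were called with both siRNAs, as were 65.7% of all genes with Si-KDM4C#1 and 59.4% with Si-KDM4C#2. SQSTM1, the p62 protein that binds ubiquitin and LC3, stood at 47.6, 43.9 and 43.6 FPKM with Scramble, at 53.6, 58.2 and 59.0 with Si-KDM4C#1 and at 60.7, 59.1 and 58.5 with Si-KDM4C#2. All knockdown libraries lay above all Scramble libraries, at a log2 difference of 0.33 ± 0.048 (adjusted p = 0.000197) and 0.39 ± 0.048 (adjusted p = 8.41e-05). Adjusted for GC content (58.8% in SQSTM1) the log2 differences were 0.16 and 0.18, both still called, and 22% of its exon bases lie opposite exons of other genes. NBR1, a receptor built like p62, stood at 25.6, 26.2 and 26.3 FPKM with Scramble, at 19.97, 18.8 and 18.3 with Si-KDM4C#1 and at 15.2, 17.5 and 15.9 with Si-KDM4C#2. It fell with both siRNAs, by 0.43 ± 0.054 (adjusted p = 6.84e-05) and 0.65 ± 0.054 (adjusted p = 6.38e-06) on the log2 scale. OPTN, optineurin, a receptor for damaged mitochondria and bacteria, stood at 8.33, 8.31 and 8.67 FPKM with Scramble, at 5.81, 6.24 and 6.44 with Si-KDM4C#1 and at 4.48, 4.99 and 5.90 with Si-KDM4C#2. It was lower in every knockdown library than in every Scramble library, at -0.40 ± 0.079 (adjusted p = 0.00151) and -0.63 ± 0.079 (adjusted p = 9.97e-05).

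**Figure D3:**
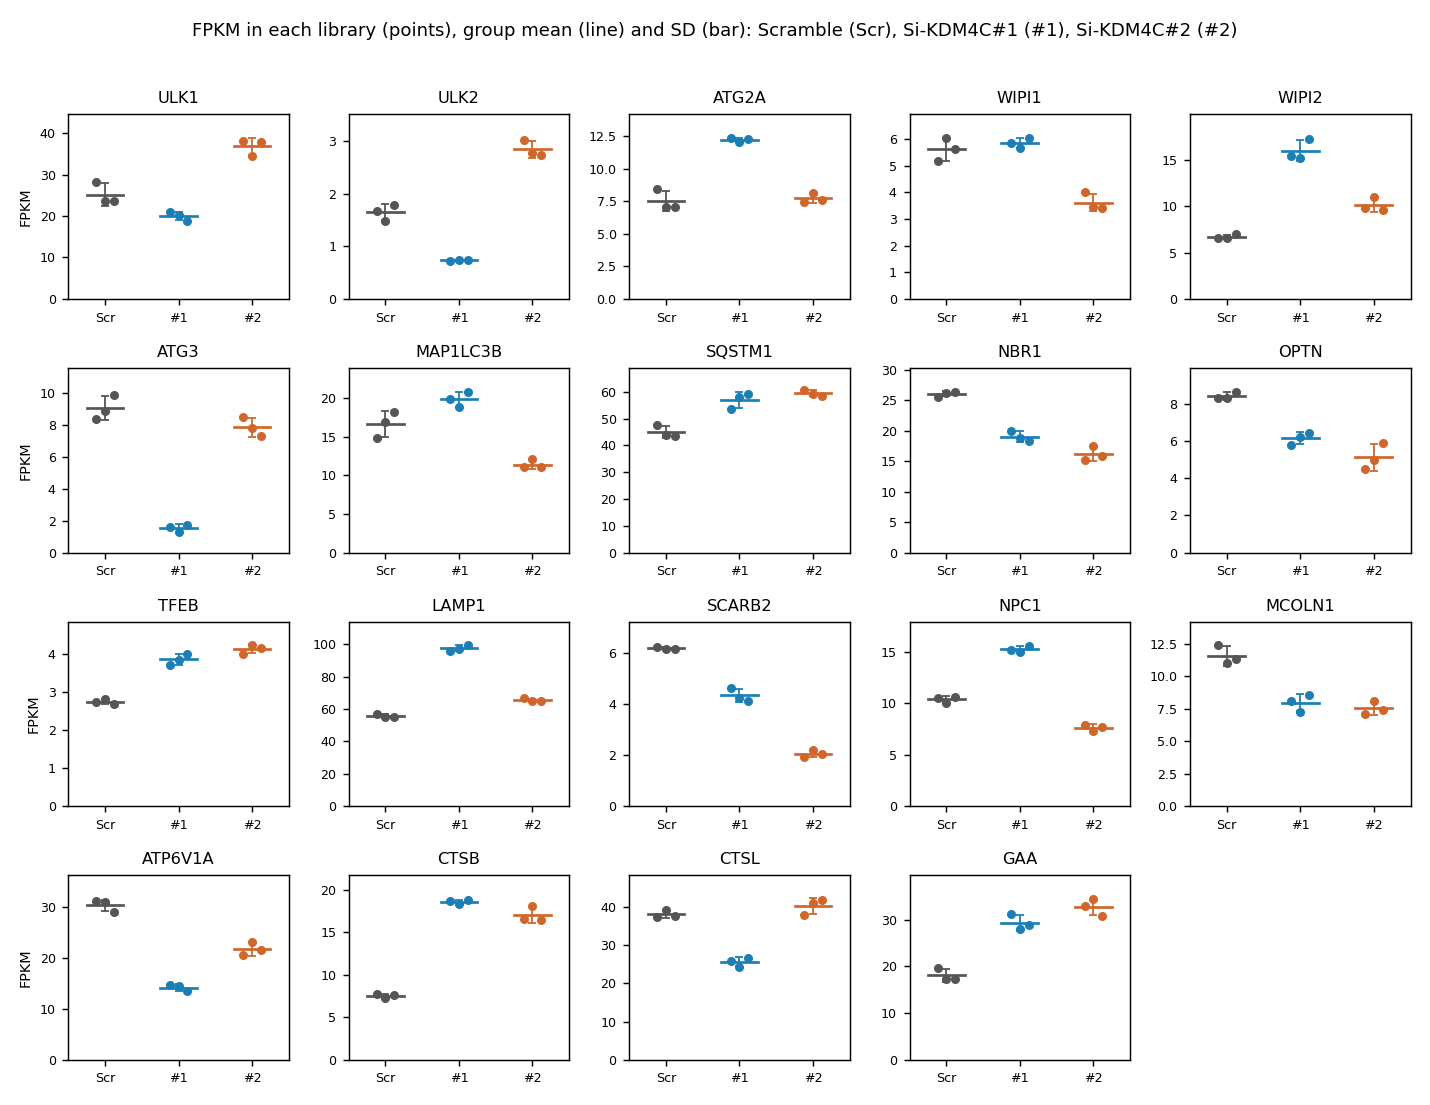
FPKM (vertical axes, each from 0) of the 19 members named by the rule in each library, with Scramble in grey, Si-KDM4C#1 in blue and Si-KDM4C#2 in orange; points are libraries, lines are group means and bars are SDs (n = 3). CTSB is higher and SCARB2 lower in all 6 knockdown libraries, while ULK1, ULK2, MAP1LC3B and NPC1 have Scramble between the siRNAs.

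The MiT/TFE factors bind E-box elements in promoters of autophagy and lysosome genes. TFEB stood at 2.74, 2.82 and 2.70 FPKM with Scramble, at 3.73, 3.86 and 4.01 with Si-KDM4C#1 and at 4.01, 4.24 and 4.17 with Si-KDM4C#2. All 6 knockdown libraries were above the Scramble libraries, at a log2 difference of 0.37 ± 0.052 (adjusted p = 0.000146) and 0.45 ± 0.052 (adjusted p = 5.43e-05). Neither call held with adjustment for GC content (62.4% in TFEB), which gave 0.12 (adjusted p = 0.117) and 0.14 (adjusted p = 0.0827). TFE3, its relative, rose with Si-KDM4C#1 (0.30 ± 0.043, adjusted p = 0.000182) and fell with Si-KDM4C#2 (-0.15 ± 0.043, adjusted p = 0.0112); with the GC adjustment these were 0.12 and -0.38, both still called. MITF fell with Si-KDM4C#2 (-0.31 ± 0.056, adjusted p = 0.00116) and was at 0.02 with Si-KDM4C#1 (adjusted p = 0.757), or 0.21 and called with the GC adjustment. These are levels of mRNA, and the location of the proteins, by which these factors are largely controlled, was not measured.

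Since these factors recognise the E-box CACGTG and its longer forms, promoters of the members were searched for CACGTG, TCACGTGA and GTCACGTGAC, which read the same on both strands and contain one another. RefSeq promoters (GRCh38.p14, 250 bases before to 50 after the start site) were found for 38 of the 44 genes. CACGTG was held by 8 of them (21.1%), against 7.43% of 27305 promoters in all and 10.7% of the 9172 of tested genes. TCACGTGA was held by 6 (15.8%, against 1.04% and 2.04%), and GTCACGTGAC by 2 (5.26%, against 0.381% and 0.84%). A match is a description of the sequence and not a binding site. The windows of 30 bases below show 1 match of each of these 6 genes on the gene's strand, with TCACGTGA or, where it is held, GTCACGTGAC in capitals, to set the element beside the changes of its gene.
GAA, chr17:80101538-80101567, plus strand: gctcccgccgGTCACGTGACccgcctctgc
MCOLN1, chr19:7522598-7522627, plus strand: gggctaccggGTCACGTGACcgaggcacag
LAMP1, chr13:113297199-113297228, plus strand: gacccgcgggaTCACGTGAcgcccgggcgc
ATG3, chr3:112561940-112561969, minus strand: agagtctagtgTCACGTGAggccccggtgg
ATP6V0D1, chr16:67481199-67481228, minus strand: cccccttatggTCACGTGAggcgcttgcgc
CTSA, chr20:45891298-45891327, plus strand: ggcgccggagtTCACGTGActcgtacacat

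Counted from 0 at the start site, the capitals began at -33 in GAA, -16 in MCOLN1, -29 in LAMP1, 4 in ATG3, -60 in ATP6V0D1 and -26 in CTSA. The 6 genes changed in both directions. With Si-KDM4C#1 3 of them rose (GAA, LAMP1, ATP6V0D1) and 3 fell (ATG3, MCOLN1, CTSA), from -1.99 to 0.79 on the log2 scale. With Si-KDM4C#2 3 rose (GAA, LAMP1, CTSA), MCOLN1 fell, and ATG3 and ATP6V0D1 were not called. Of the 32 genes whose promoter lacked TCACGTGA, 16 rose and 9 fell with Si-KDM4C#1, and 11 rose and 12 fell with Si-KDM4C#2. Over all genes tested, 31.7% rose and 33.9% fell with Si-KDM4C#1, and 34.4% rose and 25% fell with Si-KDM4C#2. The part of these elements in the changes was not tested. GAA and MCOLN1, which hold the 10-base form, changed in opposite directions with either siRNA.

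Among the lysosomal membrane proteins, SCARB2 (chr4:76158733-76234536, minus strand), the LIMP-2 receptor that carries glucocerebrosidase to the lysosome, had the largest fall with Si-KDM4C#2. It stood at 6.22, 6.13 and 6.13 FPKM with Scramble, at 4.62, 4.23 and 4.12 with Si-KDM4C#1 and at 1.93, 2.19 and 2.02 with Si-KDM4C#2. The groups stood in this order without overlap, and the Si-KDM4C#2 mean was 0.333 times that of Scramble. SCARB2 fell by 0.43 ± 0.058 (adjusted p = 0.000114) and by 1.23 ± 0.058 (adjusted p = 2.04e-07) on the log2 scale, and the siRNAs differed by -0.80 ± 0.058 (adjusted p = 1.99e-06). With the GC adjustment (43.2% in SCARB2) the fall with Si-KDM4C#1 was -0.25, still called.

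LAMP1, a main glycoprotein of the lysosomal coat, stood at 57.2, 55.2 and 55.1 FPKM with Scramble, at 96.2, 96.9 and 99.6 with Si-KDM4C#1 and at 66.6, 64.9 and 65.3 with Si-KDM4C#2. Each group lay in a narrow range of its own, with Si-KDM4C#1 the highest. The log2 difference from Scramble was 0.79 ± 0.031 with Si-KDM4C#1 (adjusted p = 4.18e-08) and 0.23 ± 0.031 with Si-KDM4C#2 (adjusted p = 0.000181), the latter at 0.09 after quantile normalization and 0.12 with the GC adjustment, both still called. LAMP2, its partner in the coat and at 23.3 ± 0.584 FPKM with Scramble, was not called with either siRNA, at 0.08 ± 0.036 (adjusted p = 0.0615) with Si-KDM4C#1 and within 0.01 of Scramble with Si-KDM4C#2 (adjusted p = 0.94). With the GC adjustment (39.3% in LAMP2) it was called as higher with both, at 0.36 (adjusted p = 1.86e-05) and 0.11 (adjusted p = 0.0314), and after quantile normalization as lower with Si-KDM4C#2, at -0.14 (adjusted p = 0.00655).

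NPC1, which exports cholesterol from the lysosome, stood at 10.5, 10.1 and 10.6 FPKM with Scramble, at 15.2, 14.96 and 15.6 with Si-KDM4C#1 and at 7.91, 7.32 and 7.68 with Si-KDM4C#2. Scramble lay between the siRNAs without overlap. NPC1 rose with Si-KDM4C#1 (0.51 ± 0.043, adjusted p = 4.19e-06) and fell with Si-KDM4C#2 (-0.40 ± 0.043, adjusted p = 3.46e-05), a direct difference of -0.91 ± 0.043 (adjusted p = 1.54e-07). MCOLN1, the calcium channel of the lysosome, stood at 12.4, 10.98 and 11.3 FPKM with Scramble, at 8.10, 7.24 and 8.53 with Si-KDM4C#1 and at 7.06, 8.07 and 7.44 with Si-KDM4C#2. It fell with both siRNAs, at -0.49 ± 0.071 (adjusted p = 0.000195) and -0.56 ± 0.071 (adjusted p = 0.000107), and the knockdown groups overlapped each other (-0.07, adjusted p = 0.412; by voom -0.21, adjusted p = 0.0292).

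The V-ATPase pumps protons into the lysosome. ATP6V1A (chr3:113747019-113812056, plus strand), its catalytic subunit, stood at 31.2, 31.0 and 29.2 FPKM with Scramble, at 14.8, 14.5 and 13.5 with Si-KDM4C#1 and at 20.7, 23.2 and 21.5 with Si-KDM4C#2. The Si-KDM4C#1 libraries were the lowest and the groups did not overlap. ATP6V1A fell with Si-KDM4C#1 (-1.05 ± 0.053, adjusted p = 1.83e-07) and with Si-KDM4C#2 (-0.46 ± 0.053, adjusted p = 5.51e-05), and the difference between the siRNAs was 0.58 ± 0.053 (adjusted p = 9.82e-06). ATP6V1H, a regulatory subunit, fell by 0.41 (adjusted p = 1.73e-05) and 0.34 (adjusted p = 9.09e-05) on the log2 scale; with the GC adjustment the fall with Si-KDM4C#1 was -0.26, still called. ATP6V0D1, of the membrane part, rose with Si-KDM4C#1 (0.32, adjusted p = 0.00185) and was at -0.12 with Si-KDM4C#2 (adjusted p = 0.129). It was called as lower with Si-KDM4C#2 after quantile normalization (-0.20, adjusted p = 0.0272), by voom (-0.20, adjusted p = 0.0112), with the GC adjustment (-0.30, adjusted p = 0.0031) and without Si-KDM4C#2 replicate 2.

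All 11 genes of the lysosomal lumen were called with Si-KDM4C#1, 8 higher and 3 lower, and with Si-KDM4C#2 6 were higher, 1 lower and 4 not called. The shares over all genes were 31.7% higher and 33.9% lower for Si-KDM4C#1 and 34.4% and 25% for Si-KDM4C#2. The calls of PSAP, GRN, NPC2, CTSA, CTSZ and HEXA with Si-KDM4C#1 were lost on leaving out 1 library. CTSB (chr8:11842524-11869448, minus strand), the cysteine protease cathepsin B, stood at 7.78, 7.31 and 7.58 FPKM with Scramble, at 18.6, 18.3 and 18.8 with Si-KDM4C#1 and at 16.6, 18.1 and 16.5 with Si-KDM4C#2. All knockdown libraries were more than 2 times the highest Scramble library. CTSB rose by a log2 difference of 1.19 ± 0.046 (adjusted p = 3.62e-08) and 1.08 ± 0.046 (adjusted p = 1.24e-07), and was the member that passed both limits with either siRNA. With the GC adjustment (56.1% in CTSB) the rise with Si-KDM4C#2 was 0.91, still called but no longer more than 2-fold. The siRNAs differed for CTSB by only -0.12 ± 0.046 (adjusted p = 0.0477), and this call was lost in 7 of the 9 fits that left out 1 library. GAA (chr17:80101556-80119879, plus strand), the glucosidase that degrades glycogen in the lysosome, stood at 19.6, 17.3 and 17.3 FPKM with Scramble, at 31.2, 27.9 and 28.8 with Si-KDM4C#1 and at 32.8, 34.3 and 30.8 with Si-KDM4C#2. It rose by 0.67 ± 0.063 (adjusted p = 9.61e-06) and 0.82 ± 0.063 (adjusted p = 3.97e-06), and with the GC adjustment (64.6% in GAA) by 0.37 and 0.45, both still called.

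CTSL, cathepsin L, differed between the siRNAs. It stood at 37.4, 39.3 and 37.8 FPKM with Scramble, at 25.9, 24.4 and 26.6 with Si-KDM4C#1 and at 37.8, 41.0 and 41.7 with Si-KDM4C#2. Only the Si-KDM4C#1 libraries lay apart, below the rest (log2 difference -0.56 ± 0.048, adjusted p = 5.73e-06), the difference with Si-KDM4C#2 being 0.07 (adjusted p = 0.226), and the direct difference was 0.63 ± 0.048 (adjusted p = 3.17e-06). CTSZ rose with Si-KDM4C#2, from 105 to 108 FPKM in the Scramble libraries to 144 to 152 FPKM (0.47 ± 0.036, adjusted p = 4.11e-06). This rise was 0.21 with the GC adjustment, still called. With Si-KDM4C#1 CTSZ was slightly lower (-0.097 ± 0.036, adjusted p = 0.0387), and the direct difference was 0.57 ± 0.036 (adjusted p = 9.5e-07). CTSD, cathepsin D, rose with Si-KDM4C#1 (0.45 ± 0.097, adjusted p = 0.00247) and was at -0.13 with Si-KDM4C#2 (adjusted p = 0.267). With the GC adjustment (63.4% in CTSD) these were 0.18, no longer called (adjusted p = 0.0833), and -0.47, called as lower (adjusted p = 0.000838), and 52.7% of its exon bases lie in exons of other genes.

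The remaining genes of the lumen changed by less. GLA, the galactosidase lacking in Fabry disease, rose with Si-KDM4C#1 (0.39, adjusted p = 0.000262; 0.20 after quantile normalization) and was at -0.09 with Si-KDM4C#2 (adjusted p = 0.221), or -0.23 and called after quantile normalization. HEXA, a subunit of hexosaminidase, rose with Si-KDM4C#1 (0.20, adjusted p = 0.0157), a call lost without Scramble replicate 2. CTSA, a protective protein of other hydrolases, was at -0.14 with Si-KDM4C#1 (adjusted p = 0.0479) and at 0.24 with Si-KDM4C#2 (adjusted p = 0.00425), and NPC2, the soluble partner of NPC1, at 0.16 (adjusted p = 0.0433) and 0.20 (adjusted p = 0.015). After quantile normalization NPC2 was at 0.0012 (adjusted p = 0.988) and 0.07 (adjusted p = 0.303), neither called. Exons of other genes hold 28.5% of the exon bases of CTSA and 16.3% of those of HEXA, so their values are uncertain. The abundant PSAP and GRN shifted by little: PSAP was at 0.09 with Si-KDM4C#1 (adjusted p = 0.0319) and -0.14 with Si-KDM4C#2 (adjusted p = 0.00438), and GRN at 0.11 (adjusted p = 0.0211) and 0.27 (adjusted p = 0.000195). For these 4 genes and CTSZ the calls with Si-KDM4C#1 were lost on leaving out 1 library, each of them without Scramble replicate 2 among others, and for NPC2 with Si-KDM4C#2 without Scramble replicate 3 or Si-KDM4C#2 replicate 2. Adjusted for GC content, GRN (62.8%) was at -0.15 with Si-KDM4C#1 (adjusted p = 0.0116) and -0.06 with Si-KDM4C#2 (adjusted p = 0.27), and CTSA (57.6%) was at 0.05 with Si-KDM4C#2 (adjusted p = 0.433).

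The GC content, taken over all annotated transcripts of a gene, differed between the calls in its median, while its ranges overlapped. With Si-KDM4C#1 it ran from 45% to 64.6% for members that rose and from 39.4% to 64.1% for those that fell. With Si-KDM4C#2 these ranges were 43.9% to 64.6% and 39.4% to 61%. With Si-KDM4C#1 its median was 54.2% for members that rose, 48.2% for those that fell and 45.7% for those not called. With Si-KDM4C#2 these medians were 56.1%, 48.9% and 50.7%. Between the siRNAs the medians were 50% for the 13 genes higher with Si-KDM4C#2 and 50.8% for the 23 lower. The part of GC content in the changes was tested only by the adjustment whose values are given beside some of the genes.

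Compared directly, the siRNAs differed at 36 of the 44 genes (81.8%), against 62.4% of all genes. With Si-KDM4C#2 13 were higher than with Si-KDM4C#1 (29.5%, against 35.9% of all genes) and 23 were lower (52.3%, against 26.5%). The groups did not overlap for 37 members, which was the case for 69.3% of all genes. ATG3 and ULK2, both higher with Si-KDM4C#2, passed both limits (4.55%, against 6.91% of all genes, of which 4.41% were higher and 2.49% lower). The median log2 difference was -0.17 over the members and 0.08 over all genes. By role, all 4 genes of membrane supply were lower with Si-KDM4C#2 and 4 of the 5 initiation genes were higher (of all genes 26.5% were lower and 35.9% higher). The call of ATG9A was lost without the filter on low genes (adjusted p = 0.0837) and without Si-KDM4C#1 replicate 1 or 2 or Si-KDM4C#2 replicate 2 or 3, and that of ATG14 by voom (0.11, adjusted p = 0.168) and with the GC adjustment (0.11, adjusted p = 0.124). Of the ATG8 proteins 3 were lower and 1 higher, and of the 5 lysosomal membrane proteins 3 were lower and 2 not called. The 8 genes not called were GAA (0.15 ± 0.063, adjusted p = 0.0628), SQSTM1, TFEB, MCOLN1, NPC2, HEXA, LAMP2 and ATP6V1H, with differences between -0.15 and 0.15. HEXA was called as lower with Si-KDM4C#2 after quantile normalization (-0.27), by voom (-0.32) and with the GC adjustment (-0.20), and LAMP2 by the last of these (-0.25) and voom (-0.22). MCOLN1 was called as lower by voom (-0.21, adjusted p = 0.0292). GAA was called as higher after quantile normalization (0.20, adjusted p = 0.0204), with at least 1 FPKM in every library, in the 6 libraries compared, with the replicate block and without Scramble replicate 1, Si-KDM4C#1 replicate 1 or Si-KDM4C#2 replicate 3, but was at 0.02 by voom (adjusted p = 0.724). The residual KDM4C mRNA differed too, at -0.73 ± 0.076 on the log2 scale between Si-KDM4C#2 and Si-KDM4C#1 (adjusted p = 2.4e-05), and the part of this in the differences was not tested.

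**Figure D4:**
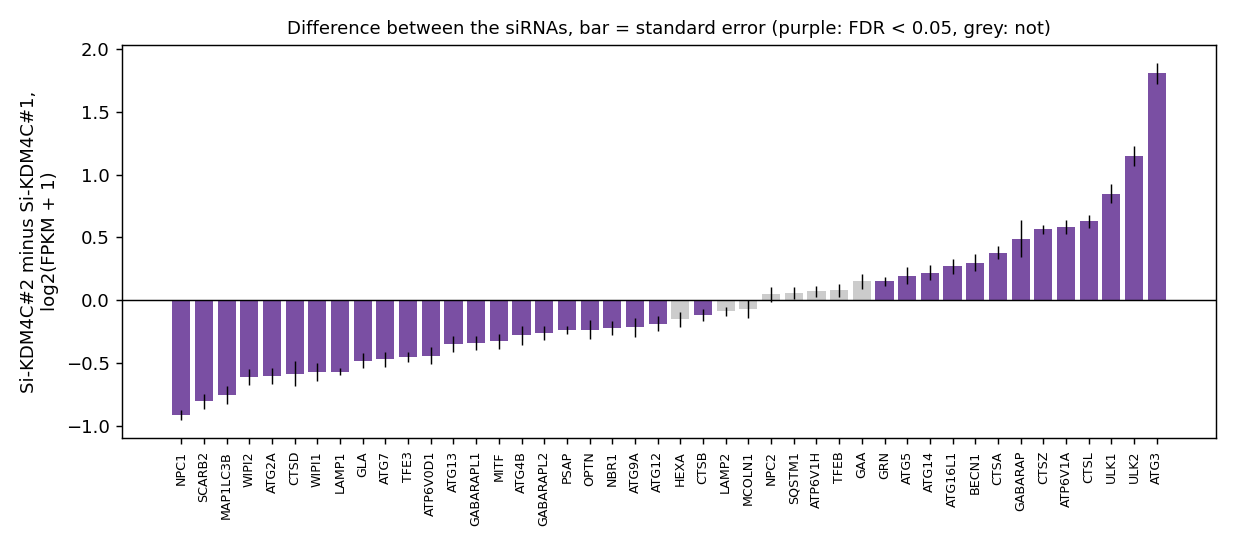
Log2 difference of Si-KDM4C#2 from Si-KDM4C#1 on the log2(FPKM + 1) scale (vertical axis) for the 44 genes in order of size; bars are the differences, lines their standard errors, and purple marks an FDR under 0.05. The bars run from -0.91 for NPC1 to 1.81 for ATG3, with 23 called as lower and 13 as higher.

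To set the members in their pathways, 8 further lists of autophagy and lysosome genes were read from the same fit. Of 18 other genes of the autophagy core that were tested, 4 rose and 6 fell with Si-KDM4C#1, and 2 rose and 7 fell with Si-KDM4C#2. Of all genes tested, 31.7% rose and 33.9% fell with Si-KDM4C#1, and 34.4% rose and 25% fell with Si-KDM4C#2. NRBF2, a subunit of the lipid kinase complex, was at means of 12.6, 3.26 and 12.6 FPKM in the order Scramble, Si-KDM4C#1 and Si-KDM4C#2, a log2 difference of -1.67 with Si-KDM4C#1 (adjusted p = 1.38e-08) and none called with Si-KDM4C#2 (adjusted p = 0.95). ATG101, a partner of ATG13, rose with Si-KDM4C#1 (1.23, adjusted p = 4.45e-07) and was at 0.04 with Si-KDM4C#2 (adjusted p = 0.649). ATG4A, a relative of ATG4B, had the largest fall of this list with Si-KDM4C#2 (-0.95, adjusted p = 2.81e-06), and ATG10, the E2-like enzyme for ATG12, the largest rise (0.32, adjusted p = 0.0131). Of the 14 genes that fuse the autophagosome with the lysosome, 5 rose and 6 fell with Si-KDM4C#1, and 2 rose and 5 fell with Si-KDM4C#2. STX17, the SNARE of the autophagosome, fell with Si-KDM4C#1 (-1.14, adjusted p = 3.49e-06) and rose with Si-KDM4C#2 (0.47, adjusted p = 0.00173), with a direct difference of 1.61 (adjusted p = 4.96e-07). YKT6, another SNARE of this step, rose with Si-KDM4C#1 (0.97, adjusted p = 3.58e-07), and VPS41, of the tethering complex, fell with Si-KDM4C#2 (-0.60, adjusted p = 0.000132).

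The kinase complex mTORC1, which acts at the lysosome, holds autophagy back in fed cells. Of 23 tested genes of the complex, its anchor and its regulators, inhibitors such as TSC1, TSC2, DEPTOR, AKT1S1, NPRL2 and NPRL3 included, 5 rose and 11 fell with Si-KDM4C#1, and 5 rose and 8 fell with Si-KDM4C#2. Of all genes 31.7% rose and 33.9% fell with Si-KDM4C#1, while for Si-KDM4C#2 these shares were 34.4% and 25%. MTOR, the kinase, was at means of 13.2, 5.89 and 10.99 FPKM in the order Scramble, Si-KDM4C#1 and Si-KDM4C#2 and fell with both, at -1.05 (adjusted p = 3.2e-06) and -0.24 (adjusted p = 0.0321). AKT1S1, an inhibitory subunit of the complex, rose with both, at 0.89 (adjusted p = 4.85e-06) and 0.82 (adjusted p = 1.33e-05). RRAGC, a GTPase that recruits mTORC1, fell with Si-KDM4C#2 (-0.81, adjusted p = 1.98e-05). Of 13 other V-ATPase genes, 6 rose and 5 fell with Si-KDM4C#1, and 2 rose and 6 fell with Si-KDM4C#2. ATP6V1D and ATP6V1E1, of its stalks, fell with both siRNAs: ATP6V1D by 1.03 (adjusted p = 2.95e-07) and 0.90 (adjusted p = 1.26e-06), ATP6V1E1 by 0.94 (adjusted p = 1.75e-07) and 0.91 (adjusted p = 3.89e-07) on the log2 scale. ATP6V1G1, also of a stalk, rose with both, at 0.63 (adjusted p = 1.68e-06) and 0.95 (adjusted p = 2.35e-07), and ATP6V1B2, the nucleotide-binding partner of ATP6V1A, rose with Si-KDM4C#1 (0.79, adjusted p = 4.02e-07).

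Of 30 other lysosomal hydrolases and their activators, 6 rose and 14 fell with Si-KDM4C#1, and 6 rose and 13 fell with Si-KDM4C#2, beside 31.7% and 33.9%, and 34.4% and 25%, of all genes. SMPD1, the acid sphingomyelinase, had the largest fall with Si-KDM4C#1 (-1.15, adjusted p = 1.99e-06) and fell with Si-KDM4C#2 too (-0.71, adjusted p = 7.75e-05). NEU1, the sialidase, was at means of 15.3, 23.2 and 6.58 FPKM, a rise with Si-KDM4C#1 (0.56, adjusted p = 3.34e-05) and a fall with Si-KDM4C#2 (-1.11, adjusted p = 6.58e-07). FUCA1, the fucosidase, fell with Si-KDM4C#2 from a mean of 14.6 to 3.67 FPKM (-1.74, adjusted p = 1.5e-07), while CTSF, cathepsin F, rose from 2.98 to 8.05 FPKM (1.19, adjusted p = 3.45e-06). Of 11 other membrane proteins, 4 rose and 2 fell with Si-KDM4C#1, and 3 rose and 3 fell with Si-KDM4C#2; LAPTM4A had the largest fall with Si-KDM4C#1 (-0.68, adjusted p = 1.73e-06) and CTNS, the cystine exporter, the largest rise (0.30, adjusted p = 0.000395), while with Si-KDM4C#2 CD63 rose the most (0.34, adjusted p = 0.00136) and ABCB9 fell the most (-0.29, adjusted p = 0.00636). Of 9 genes that sort enzymes to the lysosome, 2 rose and 6 fell with Si-KDM4C#1, and 2 rose and 2 fell with Si-KDM4C#2. SORT1, the sorting receptor sortilin, fell with both (-0.61, adjusted p = 5.06e-06, and -0.24, adjusted p = 0.00316). GNPTAB, which starts the mannose-6-phosphate tag, fell with both as well (-0.52, adjusted p = 3.44e-05, and -0.82, adjusted p = 2.67e-06), and GGA1, a sorting adaptor, rose the most with Si-KDM4C#2 (0.45, adjusted p = 0.000158), as NAGPA, which finishes the tag, did with Si-KDM4C#1 (0.41, adjusted p = 0.00256).

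**Figure D5:**
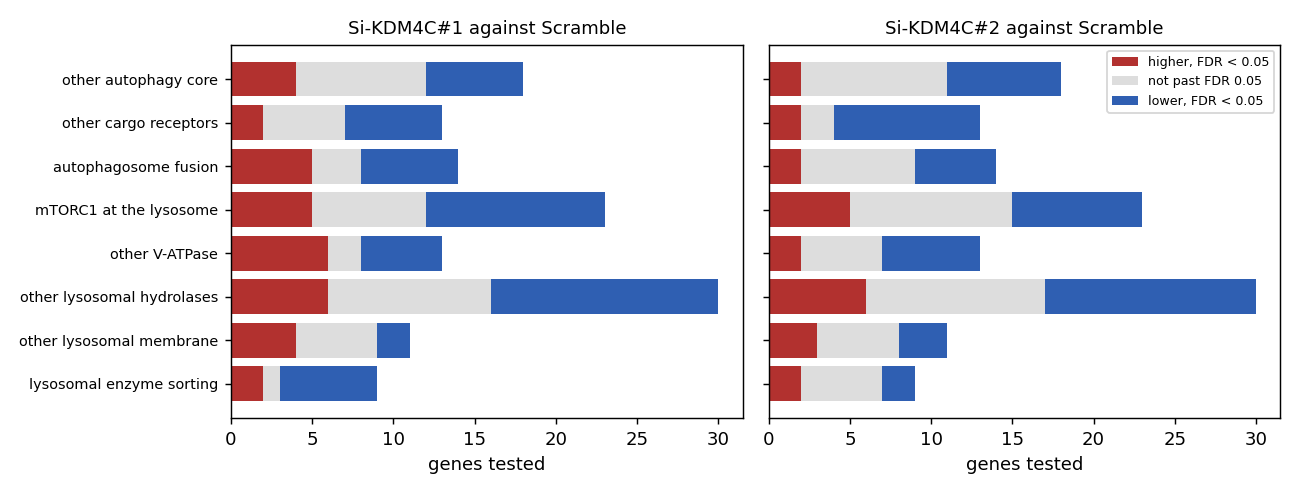
Number of tested genes (horizontal axis) in each of 8 further lists that were higher (red), lower (blue) or not past an FDR of 0.05 (grey) with Si-KDM4C#1 (left) and Si-KDM4C#2 (right) against Scramble. All lists hold genes in both directions, and among the 30 other hydrolases 14 fell with Si-KDM4C#1 and 13 with Si-KDM4C#2.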

How the data were processed

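Huh7 RNA was sequenced by the authors, and the deposited files hold, for each library, the identifier, symbol and FPKM of every gene, which the authors computed from aligned reads. The submitters' processing notes name FastQC 0.11.5, HISAT2 2.1.0, StringTie 1.3.3b, DESeq 1.28.0, featureCounts and the GRCh38 build; which tool gave the FPKM, the annotation and the strand setting are not given in the sources used here. No column of other samples was present (0 columns left out).

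Groups and replicate numbers were taken from the labels. The members and all gene lists were chosen with earlier results of these data known. All 9 libraries entered 1 limma-trend fit (limma 3.58.1, R 4.3.3) of log2(FPKM + 1), without covariates, over 14363 genes, with Benjamini-Hochberg adjustment; every adjusted p is from this fit unless another is named. The 19 members named in full, with KDM4C, were the 5 largest rises and the 5 largest falls with each siRNA, the 5 largest differences between the siRNAs, and MAP1LC3B, SQSTM1, LAMP1 and TFEB; of each further list the largest called rise and fall with each siRNA were named. Values of the other members are given as a summary of their role.

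FPKM times exon length (GENCODE release 29, GRCh38) gave whole fragments (within 0.05) in all libraries for 97.47% of the genes, which gave the depth; 43 of the 44 members were among the genes used in voom. A count of 3 fragments was taken as the floor. Fragment counts of replicates were compared with a chi-square test, whose value per degree of freedom was 2.66 to 5.44 (9 pairs); repeat draws from 1 library would give about 1, and a copy 0. Same-numbered libraries deviated together weakly at most (9 pairs, mean correlation 0.0162, against -0.00808 for 18 other pairs).

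Alternatives were a pseudocount of 0.1, quantile normalization, leaving the low genes in, at least 1 FPKM in every library, the 6 libraries compared, a replicate block, an FDR of 0.01, limma voom on recovered fragments (at least 10 in at least 3 libraries), a lowess adjustment for GC content (span 0.3) and leaving out each library. Plots used Python 3.11.15 and matplotlib 3.10.9. Promoters are from RefSeq.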

Additional observations from a re-analysis of the deposited data

How the results depend on the processing

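Over 9 alternatives with all libraries, 1179 values of single members were recomputed, of which 1041 kept their direction and side of the FDR limit, 75 lost a call, 32 gained one, 24 that were not called changed sign, and 7 that were called under the main or the other setting reversed. The reversed values were, with Si-KDM4C#1, PSAP (-0.028 after quantile normalization, -0.014 with the GC adjustment) and GRN (-0.047 and -0.15), and, with Si-KDM4C#2 and the GC adjustment, LAMP2 (0.11), ATG2A (-0.31) and GRN (-0.057); the cause was not tested. The number of members past both limits with Si-KDM4C#1 was 5 with a pseudocount of 0.1 or by voom, in place of 4. It was 3 with the GC adjustment (ATP6V1A at -0.85). Of all 14363 genes, 580 were higher and 694 lower past both limits in the main fit, and 900 and 1402 with the pseudocount. By voom these were 1198 and 1825 of 16005 genes, and with the GC adjustment 454 and 607 of 14343. With Si-KDM4C#2 against Scramble the number of members was 1 with the GC adjustment (CTSB at 0.91) in place of 2. Of all genes, 243 were higher and 372 lower past both limits with that adjustment, and 373 and 330 in the main fit. Between the siRNAs the number of members was 3 with a pseudocount of 0.1, 1 after quantile normalization and 4 by voom, in place of 2. It was 1 with at least 1 FPKM in every library, where 42 members were left. Of all genes, 634 were higher and 358 lower past both limits in the main fit. These were 1327 and 610 with the pseudocount, 474 and 404 after quantile normalization and 1548 and 1017 of 16005 by voom. With at least 1 FPKM in every library they were 483 and 297 of 11171. On leaving out 1 library, of 1188 values 62 lost a call, 5 gained a call and 0 reversed. With Si-KDM4C#1, 17 to 22 members rose and 11 to 14 fell, beside 4290 to 4519 and 4477 to 4799 of all genes. These were 13 to 15 and 15 to 16 members with Si-KDM4C#2, beside 4485 to 4919 and 3230 to 3603 of all genes. Between the siRNAs they were 11 to 14 and 20 to 23, beside 4696 to 5240 and 3500 to 3879. Each fit tested 14316 to 14478 genes. Past both limits there were 4, 2 and 2 members throughout. Of all genes, 557 to 623 were higher and 642 to 772 lower past both limits with Si-KDM4C#1. With Si-KDM4C#2 these were 361 to 431 and 325 to 387, and between the siRNAs 599 to 678 and 345 to 378. Libraries with the same replicate number had a mean correlation of 0.0162, against -0.00808 for the other pairs. Of the 9 libraries, 6 correlated best with their own number, so a weak pairing was not excluded. With the replicate block, 20 members rose and 13 fell with Si-KDM4C#1, 15 and 15 with Si-KDM4C#2 and 13 and 22 between the siRNAs. Of all 14363 genes, 4538 rose and 4835 fell, 4900 and 3563, and 5141 and 3808, in the same order. Depth limits the lowest members, such as ULK2 with 350 fragments over the Si-KDM4C#1 group.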

Other observations

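Beyond SQSTM1, NBR1 and OPTN, 13 other cargo receptors were tested, of which 2 rose and 6 fell with Si-KDM4C#1, and 2 rose and 9 fell with Si-KDM4C#2. Of all genes tested, 31.7% rose and 33.9% fell with Si-KDM4C#1, and 34.4% rose and 25% fell with Si-KDM4C#2. BNIP3, a receptor for mitochondria, had the largest fall with either siRNA, from a mean of 70.9 FPKM with Scramble to 21.99 with Si-KDM4C#1 (log2 difference -1.64, adjusted p = 7.31e-08, limma-trend) and 31.5 with Si-KDM4C#2 (-1.15, adjusted p = 1.14e-06). Its relative BNIP3L, named after its values were seen, fell from 47.8 to 23.7 and 26.5 FPKM (-0.98, adjusted p = 3.71e-07, and -0.83, adjusted p = 1.92e-06). TOLLIP rose the most with Si-KDM4C#1 (0.38, adjusted p = 0.00181), and TEX264, a receptor for the endoplasmic reticulum, with Si-KDM4C#2 (0.46, adjusted p = 0.000157).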
